A study of Mus musculus with 5 samples.

Results

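Cluster 4 of the authors' integrated cell table is a set of T cells led by Foxp3, Ctla4 and Tnfrsf4, genes known from regulatory T cells. Its members were taken as every cell with the deposited cluster number 4, which gave 850 of 10275 cells (8.27%). The cells came from thyroids of NOD mice and had been sorted as live CD45+ leukocytes before 10x single-cell RNA sequencing. ICI mice received anti-PD-1 (clone RPM1-14) together with anti-CTLA-4 (clone 9D9), each at 10 mg/kg per dose into the peritoneum, on a schedule of 2 doses a week for 4 weeks. Isotype mice received the control antibodies 2A3 and MPC11. All mice were NOD.WT, of both sexes, and 4 to 6 weeks old at the start. Cells of 16 ICI mice and 10 isotype mice were pooled, and the number of mice behind each library is not given in the labels.

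Regulatory T cells restrain other lymphocytes and prevent autoimmunity, and loss of their transcription factor Foxp3 leads to disease in many organs. They depend on interleukin-2 taken up through a receptor that includes Il2ra, and they carry much of the CTLA-4 protein that an anti-CTLA-4 antibody binds. In lymphoid organs resting regulatory T cells express the homing receptor Ccr7, while those in inflamed tissue often express receptors such as Cxcr3.

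ICI 1, ICI 2, ICI 3 and ICI 4 held 160, 48, 45 and 569 cells of cluster 4, against 28 cells in the single isotype library. Their summed depth was 321862, 109099, 131263 and 2431169 UMIs in ICI 1 to 4, against 138880 UMIs in isotype. ICI 4 thus supplied most ICI cells, and its barcodes carried 2 suffixes (276 and 293 cells) that were counted as 1 library. ICI 2 and ICI 3 shared 140 barcodes among all their cells, but no barcode in which both copies lay in cluster 4. Counts of cluster 4 differed between ICI 2 and ICI 3 by a chi-square of 1.52 per degree of freedom, against 3.19 to 13.6 for the other pairs of libraries. Xist, transcribed in female cells, stood at 870, 101, 160 and 0.411 CPM in cluster 4 of ICI 1 to 4, against 0 CPM in isotype. The Y-linked Eif2s3y had 1, 3, 4 and 290 UMIs in ICI 1 to 4, against 19 UMIs in isotype. Xist had 280, 11, 21 and 1 UMIs in ICI 1 to 4. ICI 2 and ICI 3 thus held RNA of both sexes, while Eif2s3y in ICI 1 and Xist in ICI 4 rested on 1 UMI each. Thymocyte-like clusters 2 and 11 made up 9.13%, 1.80%, 1.89% and 14.9% of all cells in ICI 1 to 4, against 31.1% in isotype. With 1 isotype library, no gap between treatments can be told apart from a property of that library.

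The start regions of 4 genes on which the comparisons turn are shown to place these transcripts in the genome. Foxp3 had the highest fold over other cells among genes detected in 20% or more of cluster 4 cells. Il2ra and Fgl2 were higher and Tnfsf8 lower in cells with a Foxp3 UMI. Each run covers 250 bases before to 50 bases after a start of transcription from RefSeq (build GRCm38.p6), on the gene's own strand. Foxp3 had a second start (chrX:7580233-7580532), which is not shown. Capitals mark GGAAA or its reverse complement, the short core that NFAT and other factors can bind. The regions are chrX:7579426-7579725 (plus strand) for Foxp3, chr2:11642542-11642841 (plus) for Il2ra, chr5:21372423-21372722 (plus) for Fgl2 and chr4:63861235-63861534 (minus) for Tnfsf8.
Foxp3: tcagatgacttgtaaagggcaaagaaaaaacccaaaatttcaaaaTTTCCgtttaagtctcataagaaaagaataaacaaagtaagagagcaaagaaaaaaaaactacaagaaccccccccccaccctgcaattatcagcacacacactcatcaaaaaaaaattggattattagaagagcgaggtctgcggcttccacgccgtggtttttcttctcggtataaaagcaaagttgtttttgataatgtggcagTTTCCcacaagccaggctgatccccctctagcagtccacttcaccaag
Il2ra: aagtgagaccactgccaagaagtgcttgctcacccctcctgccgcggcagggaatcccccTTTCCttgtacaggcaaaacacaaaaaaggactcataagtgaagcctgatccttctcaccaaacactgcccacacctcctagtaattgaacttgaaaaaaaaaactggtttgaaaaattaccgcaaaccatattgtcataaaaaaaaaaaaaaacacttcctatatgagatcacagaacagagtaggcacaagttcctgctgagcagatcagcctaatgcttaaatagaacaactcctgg
Fgl2: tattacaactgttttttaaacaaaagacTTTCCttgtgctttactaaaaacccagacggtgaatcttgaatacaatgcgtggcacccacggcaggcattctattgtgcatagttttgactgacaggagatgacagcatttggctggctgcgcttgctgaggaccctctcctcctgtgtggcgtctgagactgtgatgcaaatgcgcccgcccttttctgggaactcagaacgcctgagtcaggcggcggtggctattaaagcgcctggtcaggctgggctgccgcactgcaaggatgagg
Tnfsf8: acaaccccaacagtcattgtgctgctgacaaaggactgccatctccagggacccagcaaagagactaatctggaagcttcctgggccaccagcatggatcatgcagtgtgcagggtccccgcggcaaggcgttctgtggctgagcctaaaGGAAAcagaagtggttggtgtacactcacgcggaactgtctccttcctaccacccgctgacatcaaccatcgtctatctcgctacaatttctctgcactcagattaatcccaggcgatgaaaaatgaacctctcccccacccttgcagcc
All 4 windows held the core, as did 61.3% of 32851 mouse promoters of the same length. Of 20 genes looked up, 16 had an entry. Among these 16, the forkhead letters TGTTTAC matched 0 (3.65% of all promoters), the AP-1 letters TGANTCA matched 1 (7.81%) and the STAT letters TTCNNNGAA matched 3 (8.30%), on either strand. For Foxp3 the STAT match lay in the window of its second start. All such matches are descriptions of the letters in a window and were not used in any test.

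The leading genes of the cluster were mostly markers of regulatory T cells. The 7 markers Foxp3, Ctla4, Tnfrsf4, Lrrc32, Tigit, Itgb8 and Izumo1r were all among its 8 leading genes by fold over all other cells. Folds had 10 CPM added to both levels, and the ranking took in only genes detected in 20% or more of cluster 4 cells. The markers were chosen with earlier results of these data known, so their ranks do not test the identity of the cluster. Because the cells had been clustered on their expression, these folds are descriptions without a test. The ranks come from sums over all libraries, in which ICI 4 gave 569 of the 850 cells, and the folds varied by library. Lrrc32 was detected in 1.88%, 0%, 4.44% and 30.4% of cells in ICI 1 to 4, against 3.57% in isotype. Itgb8 was detected in 12.5%, 6.25%, 8.89% and 29.0% of cells in ICI 1 to 4, against 21.4% in isotype. Lrrc32 thus reached the 20% in ICI 4 alone, and Itgb8 in ICI 4 and isotype. The ratio of Lrrc32 in cluster 4 to other cells was 1.80, 1.0, 2.47 and 10.8 within ICI 1 to 4, and 1.31 within isotype. The ratio of Itgb8 was 5.14, 1.21, 1.52 and 10.3 within ICI 1 to 4, and 5.20 within isotype. Foxp3 had 370 CPM in cluster 4 and 8.93 CPM in all other cells, a 20.1-fold difference. Ctla4, the inhibitory receptor that competes with Cd28, had 1048 and 71.5 CPM (13.0-fold). Tnfrsf4 encodes the costimulatory receptor OX40 and had 1575 CPM in cluster 4 and 124 CPM in other cells (11.9-fold). The one other gene among the first 8 was Tnfsf8, which encodes the ligand of CD30 (367 CPM in cluster 4 and 25.7 CPM in other cells). Cells of cluster 4 held a median of 4 of the 7 markers, against 0 in other cells. At least 3 markers were found in 38.8%, 37.5%, 64.4% and 87.7% of the cluster's cells in ICI 1 to 4, against 78.6% in isotype. The 23 cells with no marker all came from ICI 1 (16) and ICI 2 (7), the libraries in which the median depth was 1408.5 and 2106.5 UMIs per cell.

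Foxp3 (chrX:7573644-7595245, plus strand, GRCm38) was present at 379, 339, 434 and 374 CPM in ICI 1 to 4, against 245 CPM in isotype. All ICI libraries lay above isotype, and the ICI libraries were within a narrow range of each other. The isotype value rested on 34 UMIs. It was lowered by 1 cell that held 20.1% of that library's UMIs in the cluster and 0 of Foxp3. Ctla4 (chr1:60887000-60915832, plus) had 482, 724, 1082 and 1134 CPM in ICI 1 to 4, against 1087 CPM in isotype, so that ICI lay on both sides. Tnfrsf4 (chr4:156013843-156016612, plus) had 749, 449, 587 and 1776 CPM in ICI 1 to 4, against 1793 CPM in isotype. Lrrc32, which encodes GARP and holds latent TGF-beta on the cell surface, was high in ICI 4 alone, with 9.32, 0, 15.2 and 127 CPM in ICI 1 to 4, against 7.20 CPM in isotype. Itgb8, an integrin chain that releases active TGF-beta, had 71.5, 27.5, 30.5 and 113 CPM in ICI 1 to 4, against 50.4 CPM in isotype. Both genes of the TGF-beta pathway were thus highest in ICI 4. Ikzf2, the transcription factor Helios, had 1414, 587, 1021 and 762 CPM in ICI 1 to 4, against 547 CPM in isotype. Il2ra, the alpha chain of the interleukin-2 receptor, had 351, 165, 60.9 and 329 CPM in ICI 1 to 4, against 338 CPM in isotype.

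**Figure D1:**
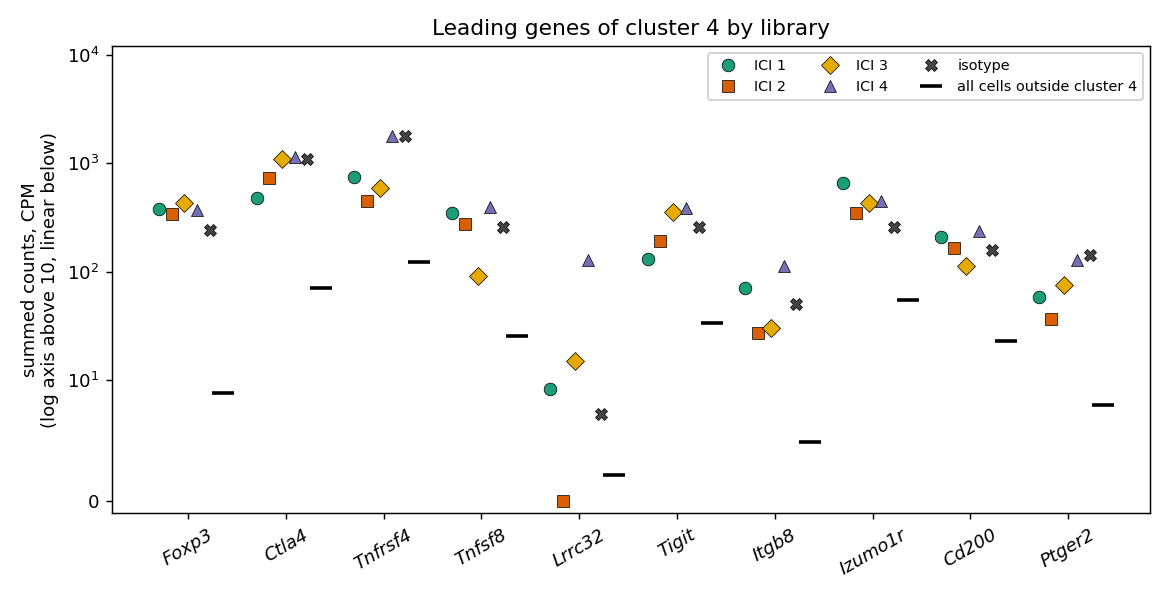
Summed counts of the leading genes of cluster 4 in CPM (log axis above 10, linear below) for each of the 5 libraries. Foxp3 stayed between 339 and 434 CPM in the ICI libraries, against 245 CPM in isotype, whereas Lrrc32 reached 127 CPM in ICI 4 and at most 15.2 CPM elsewhere.

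Thyroid, stromal and natural killer markers were low in the ICI libraries, whereas red cell RNA stood out in ICI 4 and thyroid RNA in isotype. Cd3e, a chain of the T cell receptor complex, was found in 94.8% of the cluster's cells, Cd4 in 57.3% and Cd8a in 8.35%. Lyz2, which marks macrophages, was found in 0.941% and Cd79a, which marks B cells, in 0.588%. Their whole lists were less low. The 12 myeloid genes summed to 245 to 339 CPM in the ICI libraries, against 230 CPM in isotype. The 8 B genes summed to 314 to 709 CPM, against 223 CPM in isotype. The 10 CD8 and cytotoxic genes summed to 221, 1045, 891 and 615 CPM in ICI 1 to 4, against 446 CPM in isotype. The 10 thyroid and epithelial genes summed to 43.5, 91.7, 38.1 and 43.6 CPM in ICI 1 to 4, against 1037 CPM in isotype, with Tshr, Nkx2-1 and Clu at 0 in every library. The 10 thymocyte genes summed to 519, 82.5, 114 and 585 CPM in ICI 1 to 4, against 1152 CPM in isotype. The 5 red cell genes summed to 2895 CPM in ICI 4 and 0 CPM in ICI 1 to 3, against 50.4 CPM in isotype. The natural killer list summed to 9.17 to 21.7 CPM in the ICI libraries, against 21.6 CPM in isotype, with Klre1 and Klra4 at 0. Cells holding a UMI of any of 16 defining genes of thyroid, endothelial, stromal, myeloid or B cells numbered 8, 5, 4 and 57 in ICI 1 to 4, against 4 in isotype, or 5.0%, 10.4%, 8.89% and 10.0% of the cluster's cells, against 14.3%.

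Foxp3 was detected in 417 of the 850 cells (49.1%), and in 1.82% of all other cells. The share was 32.5%, 45.8%, 62.2% and 52.5% in ICI 1 to 4, against 57.1% in isotype. Macrophage-like cluster 7, which should lack the gene, had a Foxp3 UMI in 0.483% of its cells at a median depth of 4333 UMIs, against 3060 in cluster 4. After each cell was thinned to 1000 UMIs the shares were 21.8%, 38.6%, 46.3% and 28.5% in ICI 1 to 4, against 28.6% in isotype; thinning left out 36, 4, 4 and 0 cells of ICI 1 to 4 and 0 of isotype. The order of the libraries was not the same after thinning. Within ICI 4 the share was 57.7%, 52.8%, 48.6% and 51.0% across 4 depth groups of 142 or 143 cells, from the shallowest to the deepest. Over all clusters 589 cells held a Foxp3 UMI, and 70.8% of them lay in cluster 4. Cluster 12 held a further 49 such cells (15.8% of its own cells), at a median depth of 9406 UMIs.

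Cells of cluster 4 with and without a Foxp3 UMI were compared next, within each library, to describe the diversity inside the cluster. Cells with a Foxp3 UMI had more RNA of the interleukin-2 receptor chain Il2ra and of the soluble mediator Fgl2. Both chains of the integrin that binds E-cadherin (Itgae and Itgb7) were also called higher, but Itgb7 lost the call in 11 of 13 alternatives. Cells without a Foxp3 UMI had more Tnfsf8, Tbc1d4 and Bhlhe40. Counts were summed per library over 52, 22, 28 and 299 cells with the UMI in ICI 1 to 4 and 16 in isotype, against 108, 26, 17 and 270 cells without it and 12 in isotype. Median depth did not move one way, at 1731.5, 1739, 2541 and 3435 UMIs in the cells with it in ICI 1 to 4 and 3424 in isotype, against 1358.5, 2571, 3007 and 3620 UMIs in the cells without it and 3150.5 in isotype. In edgeR's quasi-likelihood test with the library as a block, 9 of 1209 genes were higher (0.744%) and 4 were lower (0.331%) at an adjusted p under 0.05, with Foxp3 itself left out, together 1.08% of genes. Each of the 13 lay on the same side in all 5 libraries, as did 8.77% of all genes tested on the higher side and 2.07% on the lower side.

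Fgl2 (chr5:21372642-21378374, plus) encodes a fibrinogen-like protein that regulatory T cells can secrete. It had 293, 1253, 1157 and 121 CPM in cells with a Foxp3 UMI in ICI 1 to 4 and 44.6 CPM in isotype, against 121, 453, 190 and 31.8 CPM in cells without it and 0 CPM in isotype. Levels differed widely between libraries, yet the cells with the UMI were higher within each one (log2 fold change 1.74, SE 0.28, edgeR adjusted p = 0.00297). Il2ra (chr2:11642807-11693193, plus) had 513, 369, 89.0 and 475 CPM in cells with the UMI in ICI 1 to 4 and 476 CPM in isotype, against 251, 43.9, 19.0 and 169 CPM in cells without it and 209 CPM in isotype (log2 fold change 1.37, SE 0.27, edgeR adjusted p = 0.0185). Il2ra was detected in 54.9% of cells with a Foxp3 UMI and 29.6% of cells without. Itgae, the alpha chain CD103, had 228, 467, 178 and 227 CPM with the UMI in ICI 1 to 4 and 119 CPM in isotype, against 146, 117, 0 and 68.8 CPM without it and 55.8 CPM in isotype (log2 fold change 1.45, SE 0.32, edgeR adjusted p = 0.0386). Itgb7, the beta chain that pairs with it, was also higher, with a log2 fold change of 0.83 (SE 0.19, edgeR adjusted p = 0.0394). The remaining higher genes were Cmtm7 (log2 fold change 1.44), the small GTPases Gimap7 (1.30) and Arl5a (1.17), the interferon-gamma receptor chain Ifngr1 (1.09) and Ighm, the constant region of IgM (1.05), with edgeR adjusted p between 0.0111 and 0.0394. Ighm was detected in 55.6% of cells with a Foxp3 UMI and 33.0% of cells without, and Cd79a was rare in the cluster.

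Tnfsf8 (chr4:63831308-63861347, minus) showed the widest gap. It had 48.9, 24.6, 0 and 237 CPM in cells with a Foxp3 UMI in ICI 1 to 4 and 29.8 CPM in isotype, against 537, 424, 228 and 565 CPM in cells without it and 474 CPM in isotype (log2 fold change -2.59, SE 0.41, edgeR adjusted p = 0.00297). No cell group with the UMI reached the level of its own library's cells without it. Tbc1d4 (chr14:101442360-101609191, minus), a regulator of glucose transporter traffic, had 114, 24.6, 12.7 and 132 CPM with the UMI in ICI 1 to 4 and 74.4 CPM in isotype, against 658, 322, 171 and 399 CPM without it and 237 CPM in isotype (log2 fold change -2.21, SE 0.31, edgeR adjusted p = 0.00128). Bhlhe40 (chr6:108660629-108666925, plus) encodes a transcription factor induced in activated T cells. It had 24.4, 49.1, 63.6 and 382 CPM with the UMI in ICI 1 to 4 and 283 CPM in isotype, against 156, 117, 266 and 874 CPM without it and 1032 CPM in isotype (log2 fold change -1.70, SE 0.26, edgeR adjusted p = 0.00277). Eea1, a tether of early endosomes, was the fourth lower gene (log2 fold change -1.20, SE 0.26, edgeR adjusted p = 0.0270). Seen from the other side, a Foxp3 UMI was found in 9.80%, 8.33%, 0% and 35.0% of Tnfsf8-positive cells in ICI 1 to 4 and 22.2% in isotype, against 43.1%, 58.3%, 75.7% and 67.3% of Tnfsf8-negative cells and 73.7% in isotype. Tnfsf8-positive cells were deeper than Tnfsf8-negative cells in 4 of the 5 libraries.

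**Figure D2:**
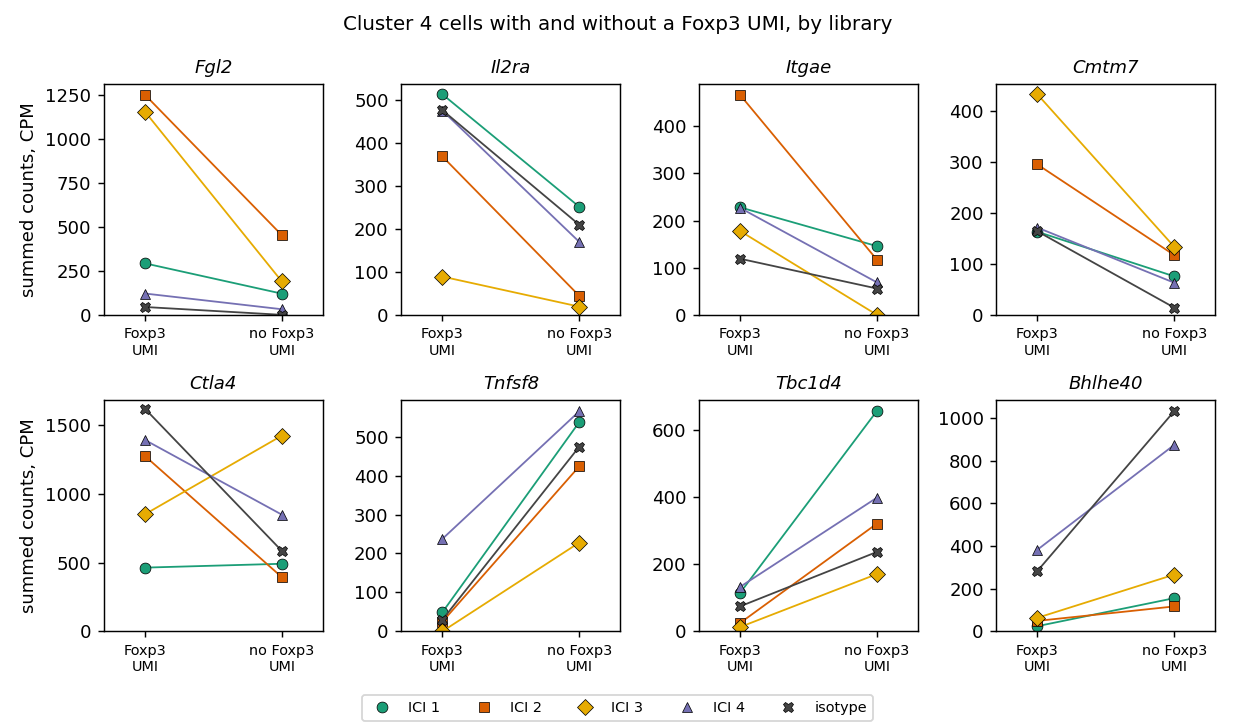
Summed counts (CPM) of selected genes in cluster 4 cells with a Foxp3 UMI (left) and without one (right), with 1 line per library. Fgl2 and Il2ra fall from left to right in each of the 5 libraries, while Tnfsf8, Tbc1d4 and Bhlhe40 climb in each.

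Other defining genes of regulatory T cells did not pass the threshold between the cells with and without the UMI. Ctla4 had a log2 fold change of 0.49 (edgeR adjusted p = 0.765) and was higher with the UMI in 3 of 5 libraries. Tnfrsf4 had a log2 fold change of -0.14 (edgeR adjusted p = 0.972), with 904, 418, 496 and 1814 CPM in cells with the UMI in ICI 1 to 4, against 653, 468, 722 and 1734 CPM in cells without. Ikzf2 was higher in 5 of 5 libraries at a log2 fold change of 0.54, short of the threshold (edgeR adjusted p = 0.457). Of the 18 Treg core genes 10 were tested, 8 of them with a positive value and 1 past the threshold (Il2ra). Their median was 0.49, beside -0.01 over all genes tested. All 5 tested suppressive mediators were positive (median 0.49, 1 past the threshold). All 7 tested genes of the T cell receptor signal response, such as Nr4a1 (log2 fold change -0.24, edgeR adjusted p = 0.971), were negative (median -0.37), 2 of them at an unadjusted p under 0.05 and 0 past the threshold. Of the 11 interferon response genes tested 9 were positive (median 0.43), with 4 at an unadjusted p under 0.05 and 0 past the threshold.

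Fewer of the 13 genes passed in some alternatives. Itgb7 stayed past the threshold in 2 of 13 alternatives and Itgae in 6 of 10. Without ICI 4, Fgl2, Bhlhe40, Tbc1d4 and Tnfsf8 stayed past the threshold, and the other 9 did not. Without ICI 2 the same 4 genes, Cmtm7 and Il2ra stayed, and without ICI 1 or ICI 3 it was 11 or 10 of the 13. Restricted to cells with at least 2500 UMIs, edgeR called 1 gene higher and 3 lower of 1236, with Tbc1d4 the 1 gene shared with the 13. That fit held the cells of ICI 1, ICI 4 and isotype alone. The log2 fold changes of 3 genes that lost the call in some alternatives were 1.05 to 1.48 for Arl5a, 1.34 to 1.65 for Cmtm7 and -1.47 to -1.09 for Eea1 over the 12 alternatives in which each was tested. Cells thinned to 1000 UMIs gave 0 calls by edgeR among 339 genes, of which 19 had an unadjusted p under 0.05, and 3 of the 13 genes could be tested.

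A second axis of variation ran between the libraries. ICI 1, ICI 4 and isotype had more RNA of recirculating T cell genes, with Ccr7 lower in ICI 1. ICI 2 and ICI 3 held cells with Cxcr3, Cxcr6 and Fgl2. Ccr7, the receptor that guides T cells into lymph nodes, had 379, 45.8, 7.62 and 2324 CPM in ICI 1 to 4, against 907 CPM in isotype. Satb1, a chromatin organiser of thymocytes and resting T cells, had 289, 0, 7.62 and 404 CPM in ICI 1 to 4, against 346 CPM in isotype. Both genes were nearly missing from ICI 2 and ICI 3. The 10 naive or recirculating genes summed to 2402, 577, 716 and 4585 CPM in ICI 1 to 4, against 2391 CPM in isotype. Lef1, a transcription factor of resting T cells, had 367, 55.0, 60.9 and 226 CPM in ICI 1 to 4, against 144 CPM in isotype. Tcf7, which maintains resting T cells, had 317, 36.7, 30.5 and 295 CPM in ICI 1 to 4, against 317 CPM in isotype. ICI 1 therefore sat with ICI 4 and isotype for Satb1, Tcf7 and Lef1, although not for Ccr7.

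Cxcr3, Cxcr6, Maf and H2-K1, named here after their values were seen, were highest in ICI 2 and ICI 3. Cxcr3, the receptor for interferon-induced chemokines, had 230, 577, 640 and 113 CPM in ICI 1 to 4, against 86.4 CPM in isotype. Cxcr6, which binds Cxcl16, had 127, 1155, 739 and 76.5 CPM in ICI 1 to 4, against 144 CPM in isotype. Maf, a transcription factor tied to interleukin-10, had 199, 275, 594 and 136 CPM in ICI 1 to 4, against 115 CPM in isotype. H2-K1, a class I heavy chain, had 227, 1494, 1409 and 398 CPM in ICI 1 to 4, against 252 CPM in isotype. Library and treatment did not coincide for these genes, since ICI 4 was nearer to isotype than to ICI 2. Other T-lineage cells (clusters 0, 1, 3, 6 and 9) were split in a similar way, with Ccr7 at 414, 19.2, 31.0 and 1411 CPM in ICI 1 to 4, against 1041 CPM in isotype. Their Cxcr6 stood at 933, 2385, 2456 and 89.3 CPM in ICI 1 to 4, against 278 CPM in isotype. Library differences of this size were hence not particular to cluster 4, and the part of sex mix, depth and thymocyte-like cells in them was not tested.

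Ccr7 was also set against Cxcr6 and Cxcr3 cell by cell, within each library. In ICI 4, which had the most cells, Ccr7 was detected in 60.0% of 70 cells with a Cxcr6 UMI and 82.2% of 499 cells without one. It was likewise detected in 64.0% of 139 cells with a Cxcr3 UMI and 84.4% of 430 cells without one. Cxcr3 itself was detected in 45.7% of Cxcr6-positive cells and 21.4% of Cxcr6-negative cells of ICI 4. Median depth there was 3965.5 UMIs in cells with a Cxcr6 UMI and 3501 UMIs in cells without one. In ICI 1 Ccr7 was detected in 17.4% of 23 Cxcr6-positive cells and 35.8% of 137 Cxcr6-negative cells. In isotype the order was the other way, with Ccr7 in 80.0% of 5 Cxcr6-positive cells and 60.9% of 23 Cxcr6-negative cells, and in 71.4% of 7 Cxcr3-positive cells and 61.9% of 21 Cxcr3-negative cells. ICI 3 had Ccr7 in 3.23% of 31 Cxcr3-positive cells and 0% of 14 Cxcr3-negative cells. The cells of 1 library are not replicates, and these shares carry no test.

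**Figure D3:**
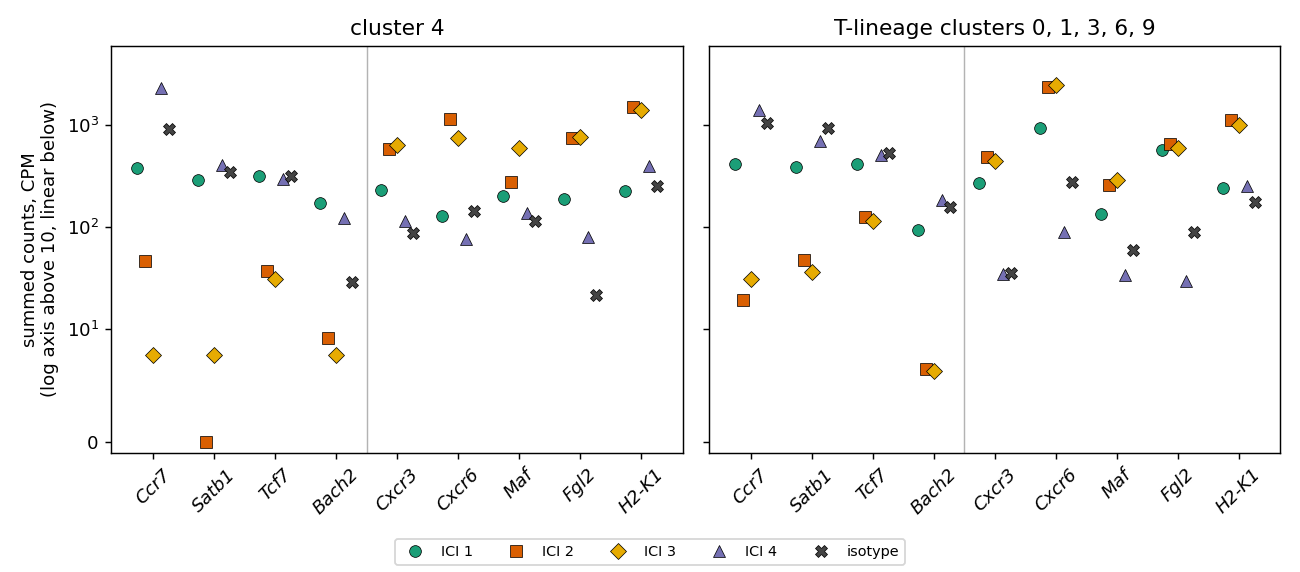
Summed counts (CPM, log axis above 10, linear below) of Ccr7 and other genes of recirculating T cells, and of Cxcr6 and other genes high in ICI 2 and ICI 3, by library, in cluster 4 and in the other T-lineage clusters. Ccr7 was 2324 CPM in cluster 4 of ICI 4 and 7.62 CPM in ICI 3, and Cxcr6 was 76.5 and 739 CPM in the same libraries.

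How large a share of the thyroid leukocytes the cluster formed was compared between treatments. Cluster 4 made up 10.5% (exact 95% interval 9.01 to 12.2), 3.94% (2.92 to 5.19), 3.87% (2.84 to 5.14) and 11.3% (10.5 to 12.2) of cells in ICI 1 to 4, against 2.07% (1.38 to 2.98) in isotype. The 4 ICI libraries were above isotype and averaged 7.41% ± 4.07 (SD, n = 4), a difference of 5.34 percentage points (exact two-sided permutation p = 0.4). The smallest p that 4 libraries against 1 can give is 0.2. Over T-lineage cells alone the shares were 16.6%, 6.33%, 6.40% and 19.0% in ICI 1 to 4, against 8.19% in isotype, with 2 of 4 ICI libraries above (exact permutation p = 1.0). Cells of any cluster with a Foxp3 UMI formed 4.79%, 2.38%, 2.67% and 8.45% in ICI 1 to 4, against 2.37% in isotype. With clusters 2, 5 and 11 left out of the denominator, isotype was again the lowest, with ICI libraries between 4.03% and 15.3%, against 3.60% in isotype (4 of 4 above, exact permutation p = 0.6). Isotype was thus lowest over all cells and over all cells but those clusters, but not over T-lineage cells. Nor was it lowest with clusters 2, 3, 5, 9, 11 and 12 left out, a denominator chosen after seeing the data. The shares were then 12.7%, 4.20%, 4.22% and 24.2% in ICI 1 to 4, against 4.30% in isotype.

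**Figure D4:**
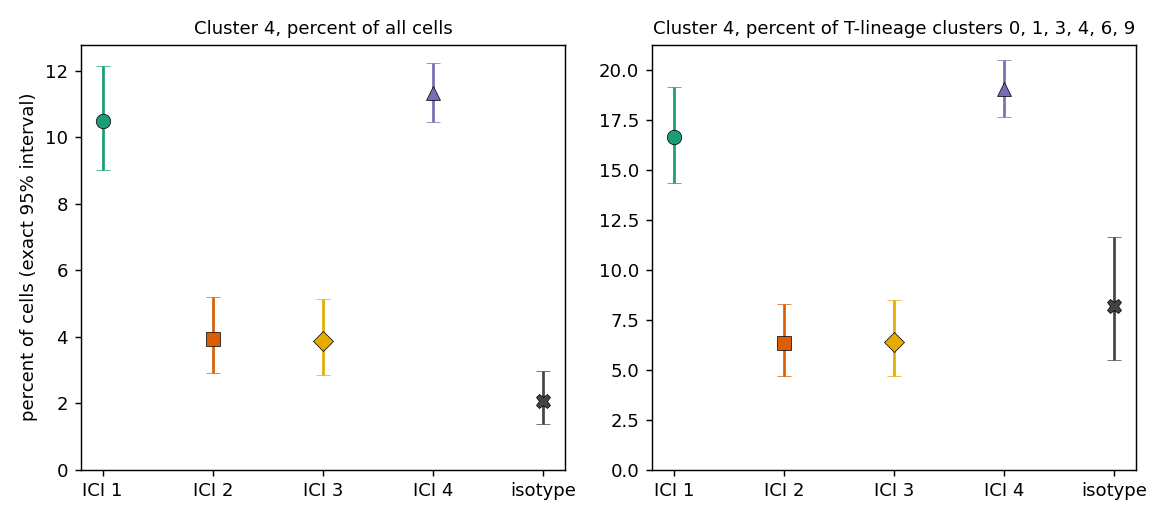
Percent of all cells and of T-lineage cells that belonged to cluster 4 in each library, with exact 95% intervals. All 4 ICI libraries exceed the 2.07% of isotype when all cells are counted, and 2 of 4 exceed its 8.19% among T-lineage cells.

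Genes of cluster 4 were compared between ICI and isotype on sums per library. No gene was called higher with ICI, and 5 of the 6 genes called lower owed most of their isotype counts to the same cell. Of 4160 genes, edgeR's quasi-likelihood test called 0 higher (0.0%) and 6 lower (0.144%), while 120 were higher and 99 lower before adjustment (p under 0.05). With DESeq2 the calls were 0 higher and 9 lower. The 6 were Krt8 and Krt18 (keratins of epithelium), Tg (thyroglobulin, the thyroid hormone precursor), the stress-induced transcription factors Atf3 and Klf4, and Cd24a (a surface protein of immature lymphocytes). Tg had 15.5, 36.7, 0 and 14.0 CPM in ICI 1 to 4, against 360 CPM in isotype. Atf3 had 3.11, 0, 0 and 5.35 CPM in ICI 1 to 4, against 576 CPM in isotype. A single isotype cell with 27946 UMIs, 20.1% of that library's counts in the cluster, and no Foxp3 UMI carried 98.0% of the Tg UMIs, 98.8% of Atf3, 97.9% of Krt18 and all of Krt8 and Klf4. Without it Tg stood at 9.01 CPM and Atf3 at 9.01 CPM in isotype. edgeR then called 0 genes of 3915 in either direction, with 149 at an unadjusted p under 0.05. With that cell but without ICI 1, Tg and Cd24a did not pass.

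Cd24a did not rest on that cell. It had 18.6, 18.3, 0 and 20.6 CPM in ICI 1 to 4, against 259 CPM in isotype, or 298 CPM without the deepest cell (log2 fold change -4.01, SE 0.64, edgeR adjusted p = 0.0360 with all cells). Its 36 isotype UMIs lay in 6 cells, 8.33% of them in the deepest cell and 55.6% in another. Without the deepest cell the log2 fold change was -4.16, but the call was lost (edgeR adjusted p = 0.128). Of the 10 thymocyte genes 5 were tested, and all 5 were lower with ICI. Their median log2 fold change was -2.27 with that cell and -2.54 without it, beside 0.09 over all genes. A gene could enter this test on its isotype level alone, as Cd24a did, which fixes its sign. The signs and medians are thus descriptions and not support for a difference. When the top cell of every gene was removed, 3 thymocyte genes remained in the test and had a median of -0.78. The isotype library was also the one with the largest share of thymocyte-like clusters.

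**Figure D5:**
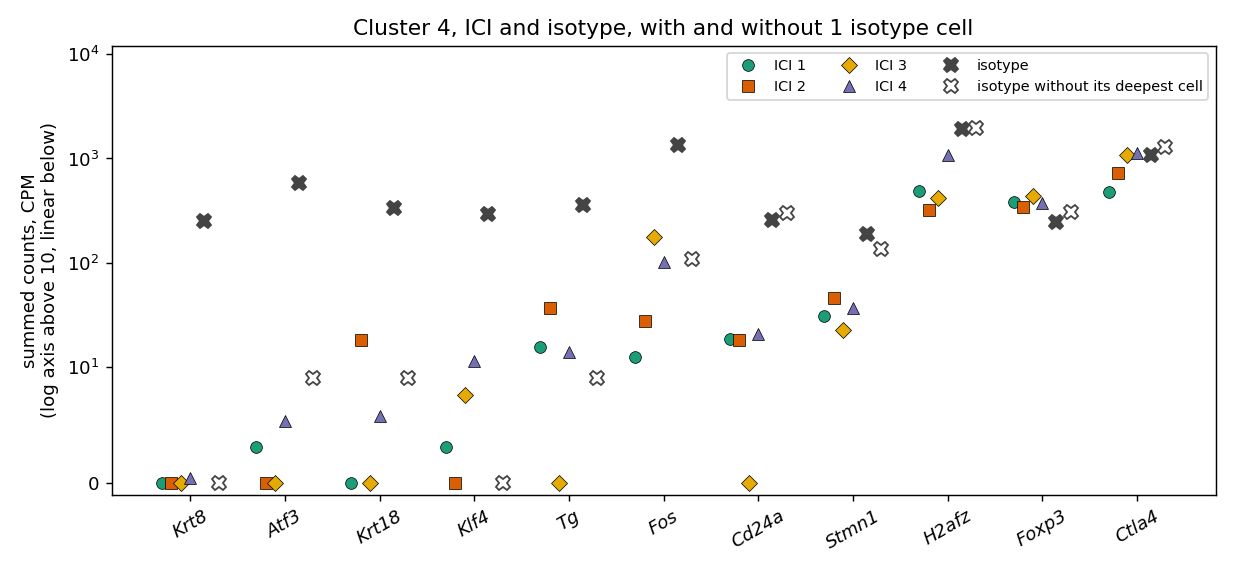
Summed counts (CPM, log axis above 10, linear below) in cluster 4 of the 4 ICI libraries and of isotype with and without its deepest cell. Isotype Atf3 is 576 CPM with the cell and 9.01 CPM without it, whereas Cd24a is 259 and 298 CPM.

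None of the defining genes of the cluster passed edgeR's threshold, and 2 of the 18 Treg core genes had an unadjusted p under 0.05. Without ICI 4, 1 of the list (Tnfrsf4) was called lower with ICI. Of 18 Treg core genes 12 were positive and 8 were higher in every ICI library, beside 32.1% of all genes, with a median log2 fold change of 0.54 (0.34 without the deepest isotype cell). Foxp3 had a log2 fold change of 0.48 (SE 0.48, edgeR adjusted p = 0.851) and Ctla4 of -0.48 (SE 0.56, edgeR adjusted p = 0.872). Nrp1, a semaphorin receptor found on many regulatory T cells, had 447, 192, 251 and 130 CPM in ICI 1 to 4, against 50.4 CPM in isotype. All ICI libraries were above isotype, where the gene had 7 UMIs, at a log2 fold change of 2.13 (SE 0.77, edgeR adjusted p = 0.831). Pdcd1, which encodes the PD-1 protein that the treatment antibody binds, had 155, 614, 366 and 531 CPM in ICI 1 to 4, against 202 CPM in isotype. Its log2 fold change of 0.90 (SE 0.74) had an edgeR adjusted p of 0.839. Of 14 class I presentation genes 13 were positive (median 0.40), with 0 past the threshold and 0 at an unadjusted p under 0.05. The 10 tested naive or recirculating genes had a median of 0.22, and none was above isotype in every ICI library or below it in every one. Il10, the anti-inflammatory cytokine, had 0, 0, 22.9 and 29.6 CPM in ICI 1 to 4, against 7.20 CPM in isotype, where it rested on 1 UMI. Stress genes had 20 of 20 tested values below 0 (median -1.04), 1 past the threshold; without the deepest isotype cell 13 of 19 were below 0 (median -0.38) and 0 passed. In ICI 4 alone against isotype, the pair most alike in sex and depth, the log2 difference was 0.57 for Foxp3, 0.02 for Ctla4 and 1.31 for Nrp1, with no test.

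Whether ICI and isotype differed by another amount in cluster 4 than in the other T-lineage cells of the same libraries was tested as an interaction with the library as a block. Areg, Bhlhe40 and Batf were among the genes lower in this difference, and Nrp1 was among the higher ones. edgeR's quasi-likelihood test called 28 of 11732 genes higher (0.239%) and 20 lower (0.17%), with 476 and 294 before adjustment (p under 0.05). With DESeq2 the calls were 1 and 1. Areg, the growth factor amphiregulin by which regulatory T cells aid tissue repair, had 0, 73.3, 76.2 and 234 CPM in cluster 4 of ICI 1 to 4, against 374 CPM in isotype. In the other T-lineage cells it had 4.25, 27.9, 4.71 and 48.6 CPM in ICI 1 to 4, against 4.24 CPM in isotype. All 4 ICI libraries were thus below isotype inside the cluster and above it or level with it outside, a log2 difference of the ICI effect of -4.27 (SE 0.63, edgeR adjusted p = 3.39e-07). The 52 isotype UMIs lay in 10 cells, 63.5% of them in 1, and Areg passed in 13 of 15 alternatives, the exceptions being DESeq2 and the removal of cells with genes of 5 marker lists.

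Bhlhe40 and Batf, named here after their values were seen, moved the same way. Bhlhe40 had 106, 91.7, 145 and 617 CPM in cluster 4 of ICI 1 to 4, against 670 CPM in isotype, and 99.3, 247, 185 and 136 CPM in the other T-lineage cells, against 113 CPM in isotype (log2 difference -2.09, SE 0.43, edgeR adjusted p = 0.00179). Batf, a transcription factor of effector regulatory T cells, had 180, 110, 114 and 459 CPM in cluster 4 of ICI 1 to 4, against 670 CPM in isotype, and 62.1, 62.6, 61.3 and 108 CPM outside, against 74.2 CPM in isotype (log2 difference -1.67, SE 0.39, edgeR adjusted p = 0.0117). Both passed again without the deepest isotype cell (edgeR adjusted p = 0.0237 and 0.0161). DESeq2 called neither, and neither passed with ICI 1 to ICI 3 summed. Nrp1 had a log2 difference of 2.32 (SE 0.60, edgeR adjusted p = 0.0366), which became an adjusted p of 0.171 without that cell. Nrp1 did not pass without ICI 1, without ICI 4 or with clusters 0 and 1 alone as the other cells. Treg core genes were positive in 16 of 18 cases (1 past the threshold, median 0.39), beside a median of 0.25 over all genes. In 7 of the 18 the difference was positive in every library, as in 31.6% of all genes tested. Proliferation genes were negative in 22 of 23 cases with 5 past the threshold (median -1.90). Over all genes 4674 of 11732 were negative and 0.17% were called lower. Of the isotype UMIs in cluster 4, 1 cell held 88.9% for Rrm2, 72.7% for Top2a, 40.0% for Mki67, 39.2% for Hmgb2 and 18.4% for H2afz. Without the deepest cell 18 of 23 were negative and 1 passed (median -1.19), beside 4379 of 11657 negative over all genes.

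Some genes called higher in this comparison had a high isotype level outside cluster 4, and others did not. Nkg7 had 358, 928, 1033 and 315 CPM in the other T-lineage cells of ICI 1 to 4, against 218 CPM in isotype. It had 0 UMIs in isotype cluster 4. Gsn, an actin-severing protein, had 55.2, 24.7, 19.6 and 238 CPM in the other T-lineage cells of ICI 1 to 4, against 2396 CPM in isotype. In cluster 4 it had 21.7, 82.5, 76.2 and 47.3 CPM in ICI 1 to 4, against 14.4 CPM in isotype. With clusters 0 and 1 alone as the other cells, 26 of the 48 calls were kept and Gsn was not among them (edgeR adjusted p = 0.44), while Areg, Bhlhe40 and Batf were.

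The authors' cell cycle calls placed 51 of 160 cells (31.9%), 23 of 48 (47.9%), 21 of 45 (46.7%) and 23 of 569 (4.04%) of ICI 1 to 4 in S or G2M, against 3 of 28 (10.7%) in isotype. The ICI mean was 32.6% ± 20.4 (SD, n = 4), a difference of 21.9 percentage points (exact two-sided permutation p = 0.8), with 3 of 4 ICI libraries above. Other T-lineage cells had the same order of libraries, with 39.0%, 57.2%, 57.1% and 4.46% in ICI 1 to 4, against 11.1% in isotype. Mki67 and Top2a, transcribed in dividing cells, gave another order, with a UMI of either in 9.38%, 6.25%, 8.89% and 10.5% of cells in ICI 1 to 4, against 21.4% in isotype (exact permutation p = 0.2). The share of cells with a UMI of Mki67 or Top2a in the other T-lineage cells was 9.73%, 10.7%, 9.42% and 5.49% in ICI 1 to 4, against 2.87% in isotype. The libraries with high phase calls were those of shallower cells, and the part of depth in the calls was not tested.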

How the data were processed

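Raw UMI counts of 18767 genes in 10275 cells were deposited by the authors, and their sums equalled the deposited totals in all 10275 cells. Cell Ranger, Seurat and build mm10 are named in the submitters' processing notes, without versions. Clusters (17, resolution 0.4), phase calls and mitochondrial percent come from the deposited cell table, per the file headers (highest 25.0%). The cell cycle scores of the deposited table were not reanalysed. No doublet removal was added. CPM is a gene's share of the summed counts of a library and cell set. Counts were summed per library and fitted in R 4.3.3 with edgeR 4.0.16 (TMM, filterByExpr with a minimum count of 10, quasi-likelihood, Benjamini-Hochberg over all genes tested, threshold 0.05). Libraries of pooled mice are the replicates. With 1 isotype library, a gene could enter either comparison of ICI with isotype through its level in 1 library alone. The single isotype library cannot show its own spread and borrows that of the ICI libraries; p-values cover this spread only. Shares and phases were compared by exact permutation in Python 3.11.15, and Clopper-Pearson 95% intervals cover counting error only. The fits were tested on simulated data. Named genes were the 7 markers, the Treg core list, up to 10 called genes in each direction, the leading genes by fold and some listed genes; genes outside this rule are identified in the text. The cluster, lists and tests were chosen with earlier results of these data known. Alternatives included DESeq2 1.42.0, RLE scaling, tests without a filter, omission of single ICI libraries, cell subsets and other denominators. Gene positions are from the GRCm38 annotation. One listed gene is not reported here.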

Additional observations from a re-analysis of the deposited data

Results flagged for a closer look

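Among the 4 ICI libraries, 26 genes were checked for 1 library far from the other 3 in cluster 4, and 4 had one; chance alone gives about 1 in 20. Ccr7 was high in ICI 4 at 2324 CPM. Lrrc32 was high in ICI 4 at 127 CPM. Krt8 was highest in ICI 4 at 0.411 CPM, which is 1 UMI among libraries otherwise at 0. Cd24a was lowest in ICI 3 at 0 CPM, where the others lay between 18.3 and 20.6 CPM. At the 131263 UMIs of ICI 3 such levels are only a few UMIs, so this 0 is near the counting limit.

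The ICI effect differed between cluster 4 and the other T-lineage cells for 20 named genes (edgeR quasi-likelihood test of the interaction, adjusted over all genes). Genes higher in this difference were Igfbp7 (adjusted p = 6.79e-11), Gsn (2.03e-11), Ifitm3 (3.31e-09), Ecm1 (5.62e-07), Cxcl13 (0.000252), H2-Aa (0.00186), Cx3cl1 (0.0039), Nkg7 (0.0122), Il2 (0.0175) and Itih5 (0.0324). Igfbp7, Cxcl13, Cx3cl1, H2-Aa, Itih5, Il2 and Nkg7 had 0 UMIs in isotype cluster 4, so that no fold is given for them. Isotype cells outside the cluster held 422 CPM of Igfbp7 and 248 CPM of Ifitm3. Of the isotype UMIs outside cluster 4, 1 cell held 90.6% for Cxcl13 and 95.9% for Il2.

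Genes lower in the same difference were Anxa1 (adjusted p = 4.61e-15), Areg (3.39e-07), Kcnk1 (0.00145), Rrm2 (0.00237), Krt18 (0.0031), Ccn1 (0.0039), Dtl (0.00745), Mki67 (0.0371), Zranb3 (0.0381) and Pclaf (0.0493). In isotype cluster 4, 1 cell held 93.8% of the Anxa1 UMIs, 97.9% of Krt18, 92.3% of Pclaf, 88.9% of Rrm2 and 100% of those of Ccn1, Kcnk1 and Zranb3. Without the deepest isotype cell, Anxa1, Kcnk1, Rrm2, Krt18, Ccn1, Dtl, Mki67 and Pclaf lost the call, Areg passed again and Zranb3 could not be tested.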

How the results depend on the processing

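Counts of calls are given as higher and lower. For ICI against isotype in cluster 4 (0 and 6), no filter gave 11 and 69, ICI 2 and ICI 3 summed 1 and 15, ICI 1 to ICI 3 summed 9 and 31, and each ICI library left out 0 to 6 and 4 to 62, the highest without ICI 4. Leaving out the deepest isotype cell, each gene's highest cell, cells with genes of 5 marker lists, cells with 1 of 16 defining genes of other cells, or cells without a Foxp3 UMI gave 0 and 0 by edgeR, with 149, 132, 60, 176 and 78 genes at an unadjusted p under 0.05, of 3915, 3268, 561, 3807 and 2335 tested. In these the fold changes of Ccr7 (0.44 with ICI 1 to ICI 3 summed, 0.0036 in Foxp3-UMI cells), Ctla4 (0.061), Cxcr6 (-0.15) and Fos (6.96) after removal by marker lists had the opposite sign. That removal left 2 isotype cells.

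For the difference between cluster 4 and other T-lineage cells (28 and 20), DESeq2 gave 1 and 1, the deepest isotype cell left out 24 and 9, each gene's highest cell left out 15 and 7, ICI 1 to ICI 3 summed 31 and 13, removal by marker lists 0 and 1, clusters 0 and 1 as the other cells 18 and 27, and each ICI library left out 25 to 37 and 16 to 47, the highest lower count without ICI 4. Signs turned after removal by marker lists for Anxa1 (4.73), Areg (1.97), Ifitm3 (-2.15), Kcnk1 (1.47), Mki67 (0.43) and Pclaf (0.75). They turned without the deepest isotype cell for Ccn1 (2.71), Kcnk1 (0.61) and Krt18 (0.17), and without each gene's highest cell for Ccn1 (4.07) and Kcnk1 (0.80). The cause was not tested.

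For cells with and without a Foxp3 UMI (9 and 4), DESeq2 gave 5 and 3, no filter 32 and 50, ICI 2 and ICI 3 summed 8 and 9, cells of at least 2500 UMIs 1 and 3, thinned cells 0 and 0, and each ICI library left out 1 to 11 and 3 to 8. Without ICI 2 they were 4 and 8, and without ICI 4 they were 1 and 3.

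The difference of the mean share kept its sign under every alternative run, 4.03 to 6.52 points with an ICI library left out. ICI 2 and ICI 3 lay below isotype over T-lineage cells and with clusters 2, 3, 5, 9, 11 and 12 left out. The phase difference was 16.8 to 31.4 points with an ICI library left out and -12.7 points for Mki67 or Top2a UMIs. Of the single-gene values under alternatives, 587 kept direction and side of the threshold, 125 lost the call, 11 gained it, 16 turned and 8 without a test moved. No paired analysis was possible because replicate numbers follow accession order and isotype has 1 library. The deepest-cell, defining-gene, depth of 2500 UMIs and cluster 12 denominator alternatives were chosen after seeing the data. Depth in cluster 4 was lowest in ICI 2, ICI 3 and isotype (109099, 131263 and 138880 UMIs); 3 counts are 21.6 CPM in isotype.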
